A study of Mus musculus with 4 samples.

Results

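The 10 genes described here make up the path by which a cell shows peptides from its own cytosol on MHC class I molecules: the heavy chains H2-D1, H2-K1, H2-Q7 and H2-T23, the light chain B2m, the loading genes Tap1 and Tapbp, the proteasome subunits Psmb8 and Psmb9, and the regulator Nlrc5. They were chosen by name, with earlier results of the same data known, and all 10 were found among the 12596 genes of a table of unique molecular identifiers (UMIs, each counting 1 captured RNA molecule) in single macrophages of mouse colon. The cells came from male wild-type C57/Bl6N mice gavaged on 5 days a week for about 6 months, either with 12 µg diesel exhaust particles (DEP, a reference soot) in 200 µL phosphate-buffered saline (PBS) or with PBS alone. The 2 DEP exposed mice (14 and 15) and the 2 PBS controls (2 and 3) each gave 1 library of CD11b+ cells of the lamina propria that carried Ly6C, CD64 or both, so every comparison between exposures rests on 2 mice against 2. Within each mouse the genes were read in Plac8-high cells (at least 2 UMIs of Plac8, a monocyte transcript) and in C1q-high cells (C1qa, C1qb and C1qc together at least 0.5% of a cell's UMIs, as in resident macrophages). Only Plac8, the C1q genes and the cell total set these gates, and none of the 10 genes did.

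In nearly every nucleated cell, cytosolic proteins are cut by the proteasome, and the peptides are pumped into the endoplasmic reticulum by the TAP transporter. There tapasin holds an empty heavy chain paired with β2-microglobulin until a peptide fits, and the loaded complex travels to the surface, where CD8 T cells read it. Interferons raise most of these genes, through IRF1 and through NLRC5, which acts at class I promoters. Macrophages use the same machinery to cross-present material they have engulfed.

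Of the 10 genes, 9 lie on mouse chromosomes 17 and 2 and had a RefSeq promoter entry (GRCm38.p6), and Nlrc5 (chr8:94434356-94527272, plus strand) is named only. The classical chains H2-D1 (chr17:35262730-35267499, plus strand) and H2-K1 (chr17:33996017-34000347, minus strand) and the non-classical chain H2-Q7 (chr17:35439155-35443773, plus strand) carried nearly the same stretch upstream of their RefSeq starts. For H2-D1 the stretch lies inside the annotated gene span given here, which begins before the RefSeq start. The stretch is shown because these 3 heavy chains have it in common, while their levels in the cells lay far apart. Capitals mark the letters GGGGANNCCC, a kB element as NF-kB binds it, and GAANNGAAA, a short-spaced form of the interferon regulatory factor (IRF) element, each searched on both strands. The lines run 5′ to 3′ on the gene's own strand.
H2-D1, chr17:35262923-35262952, plus strand: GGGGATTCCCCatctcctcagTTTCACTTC
H2-K1, chr17:34000429-34000458, minus strand: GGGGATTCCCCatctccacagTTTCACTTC
H2-Q7, chr17:35439021-35439050, plus strand: tGGGGATTCCCatctccccagTTTCACTTC
Compared base by base without gaps, H2-D1 and H2-K1 differed at 1 of these 30 bases, and H2-Q7 differed from each at 5. The marked kB block of H2-Q7 starts 1 base later in its line, which adds to that count. The first base stood at -171, -111 and -134 from the RefSeq start of H2-D1, H2-K1 and H2-Q7. The kB letters were found in the window of 3 of the 9 genes, against 1.41% of 32851 promoter windows of the same length, and the short-spaced IRF letters in the same 3, against 6.31%. Both motifs were picked after the sequences had been read.

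B2m (chr2:122147686-122153083, plus strand), the light chain that all class I heavy chains share, lacked that stretch and held the longer IRF form GAAANNGAAA, marked in capitals in its upstream window. The same letters were found in the window of H2-T23 and in 2.98% of all windows.
B2m, chr2:122147437-122147686, plus strand: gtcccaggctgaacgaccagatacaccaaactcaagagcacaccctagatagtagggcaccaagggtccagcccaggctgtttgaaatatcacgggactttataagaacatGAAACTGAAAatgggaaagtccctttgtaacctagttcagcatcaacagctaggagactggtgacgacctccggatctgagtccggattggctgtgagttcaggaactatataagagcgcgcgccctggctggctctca
H2-K1, chr17:34000348-34000597, minus strand: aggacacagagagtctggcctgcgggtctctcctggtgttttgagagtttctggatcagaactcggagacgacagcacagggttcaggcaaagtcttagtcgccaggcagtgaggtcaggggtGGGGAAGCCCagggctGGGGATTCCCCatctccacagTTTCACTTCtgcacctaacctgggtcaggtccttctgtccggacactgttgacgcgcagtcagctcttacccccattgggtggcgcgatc
The window of H2-K1 is set beside it to show the 30-base stretch in place, with another match to the kB letters before it. The letters TTCNNNGAA, a gamma-interferon activation site (GAS), were found only in the window of Psmb8 among the 9 genes, against 7.02% of all windows. That window lies upstream of the RefSeq start of Psmb8 but inside its annotated gene. CCAAT was found in 8 of the 9, against 33.8%. These windows are not all separate, since those of Tap1 and Psmb9 overlap on opposite strands and share the same CCAAT site. A match is a description of letters and does not show that a factor binds.

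Of 943 deposited cells, 652 were retained: 112 and 200 of DEP mice 14 and 15, and 170 each of PBS mice 2 and 3. The retained libraries held between 440856 and 781008 UMIs, with medians of 2624 to 4153 UMIs per cell, and 1 cell barcode was shared between mice. The filter on markers of other cell types removed 40.7% and 40.1% of the cells of the DEP mice but 15% and 22.7% of those of the PBS mice, nearly all for immunoglobulin transcripts, which made up 21666 and 30162 CPM (UMIs of a gene per 1e6 UMIs of the library) in all deposited cells of the DEP mice against 1461 and 8600 CPM in the PBS mice. When immunoglobulin genes were not counted as markers, 914 cells were retained, and values under both other rules are given where they matter. Monocyte and resident macrophage transcripts separated the gates to unequal degrees. Among cells of only 1 gate, the monocyte transcript Ly6c2 stood at 627 to 937 CPM in Plac8-high cells and at 2 to 7 CPM in C1q-high cells. Apoe, a resident macrophage transcript, stood at 4220 to 7725 against 36003 to 45325 CPM. Ccr2 was at 540 to 990 against 182 to 214 CPM, and Adgre1 at 133 to 225 against 531 to 566 CPM. Csf1r was at 360 to 438 against 701 to 770 CPM, and Mrc1 at 0 to 47.4 against 252 to 376 CPM. Cd163 overlapped, at 0 to 20.0 against 6.06 to 72.5 CPM. Plac8-high cells numbered 42, 59, 32 and 28 in mice 14, 15, 2 and 3, and C1q-high cells 81, 139, 150 and 142, with 38 cells in both gates. PBS mouse 2 had 16 of its 32 Plac8-high cells in both gates, and the summed resident markers of its Plac8-high cells were 30253 CPM, against 11121 to 14500 CPM in the other 3 mice. T cell and epithelial markers were at or below 21 CPM in sum.

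Markers of other classes also moved with exposure. Among the 10 B or plasma cell markers, the sum was 493 and 857 CPM in Plac8-high cells of the DEP mice against 338 and 389 CPM in those of the PBS mice, and 478 and 699 against 374 and 395 CPM in C1q-high cells. Most of it was immunoglobulin transcripts, with Cd79a and Ms4a1 at 0 in Plac8-high cells and at 1 UMI each in C1q-high cells. Cd79b, another B cell marker, had 7 UMIs in Plac8-high and 56 UMIs in C1q-high cells of all 4 mice together. The 4 dendritic cell markers in the table (of 6) summed to 81.0 and 73.3 CPM against 30.7 and 39.9 CPM in Plac8-high cells and overlapped in C1q-high cells. In Plac8-high cells of all 4 mice Clec9a was at 0, Flt3 at 3, Dpp4 at 11 and Ccr7 at 18 UMIs. The 1 neutrophil marker in the table (of 5), Csf3r, was at 115 and 73.3 CPM against 20.5 and 69.9 CPM in Plac8-high cells. Within C1q-high cells the 6 monocyte markers, Plac8 among them, summed to 1029.7 and 397 CPM in the DEP mice against 322 and 336 CPM in the PBS mice. In cells of only the C1q gate these sums overlapped, at 249 and 238 against 208 and 262 CPM. The 11 resident markers, the C1q genes among them, summed to 58542 and 57289 against 66097 and 63734 CPM in C1q-high cells. In cells of only that gate they summed to 64325 and 58237 against 67383 and 64439 CPM. The part of these transcripts in the class I values below was not tested.

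The class I path was expressed in every library, and 3 genes carried most of it. B2m, the light chain, had a UMI in all 652 retained cells, H2-D1 in 643 (98.6%) and H2-K1 in 592 (90.8%). Psmb8, the immunoproteasome subunit that replaces Psmb5, had a UMI in 506 cells (77.6%), and Tapbp, which encodes tapasin, in 283 (43.4%). H2-Q7 and Tap1, a subunit of the peptide transporter, had one in 22.1% and 21.9% of cells. Nlrc5, the transactivator of class I genes, had 25 UMIs in 24 cells (3.68%, exact 95% binomial interval 2.37 to 5.43%, counting error only), so that its level could not be compared between groups at this depth. No class of cells that should lack class I transcripts was present to give a background for these shares.

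Together the 10 genes took 1.34% and 1.15% of the UMIs of C1q-high cells in DEP mice 14 and 15, against 1.10% and 0.87% in PBS mice 2 and 3. In Plac8-high cells the shares were 1.45% and 1.26% against 1.22% and 1.14%. In both gates PBS mouse 3 was lowest and DEP mouse 14 highest, and DEP mouse 15 stood close to PBS mouse 2. B2m, H2-D1 and H2-K1 made up 86.8 to 89.5% of these sums. Since UMIs count molecules at transcript ends, levels of different genes can be set side by side without a correction for length. Within each gate B2m, H2-D1, H2-K1 and Psmb8 followed each other in falling order, with no overlap between neighbours over the 4 mice. Tapbp, Psmb9, H2-T23, H2-Q7 and Tap1 lay below Psmb8 without reaching it and overlapped with their neighbours in that order. Nlrc5 was lowest, with no overlap.

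**Figure D1:**
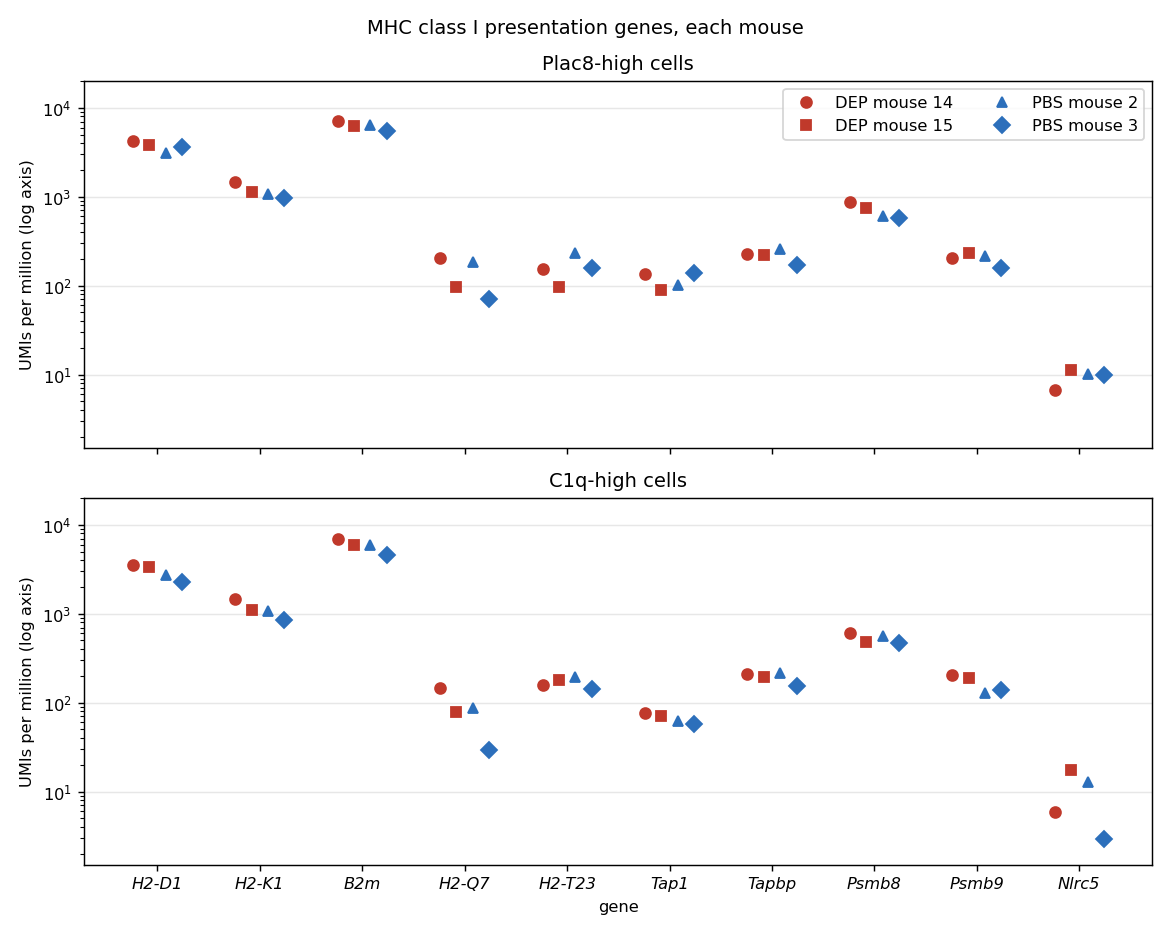
Level of each of the 10 genes in CPM (log axis) in Plac8-high cells (top) and C1q-high cells (bottom), with 1 point for each of the 4 mice. Within a gate B2m, H2-D1, H2-K1 and Psmb8 hold separate ranges from the top, Nlrc5 lies at the bottom, and the points of the other genes overlap.

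DEP against PBS was asked first in C1q-high cells, the larger gate. None of the 9 genes that could be tested passed at an adjusted p of 0.05 (edgeR quasi-likelihood test on UMIs summed per mouse, Benjamini-Hochberg over 5229 genes), where 0.191% of all genes passed. At an unadjusted p under 0.05 there were 5 of the 9 members in edgeR, beside 6.27% of all genes, and DESeq2 called none either. H2-D1, a classical heavy chain, stood at 3549.8 and 3314.1 CPM in DEP mice 14 and 15 and at 2741.4 and 2277.8 CPM in PBS mice 2 and 3. The groups did not overlap, and the log2 fold change was 0.43 ± 0.13 (SE, unadjusted p = 0.0023, adjusted p = 0.361, edgeR). H2-K1, the other classical chain, stood at 1473.0 and 1094 CPM against 1087.0 and 857 CPM, a log2 fold change of 0.38 ± 0.16 (adjusted p = 0.708, edgeR). DEP mouse 15 and PBS mouse 2 were nearly equal for this gene.

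B2m was at 7012 and 5932 CPM after DEP and at 5923 and 4591 CPM after PBS, and it had a log2 fold change of 0.28 ± 0.13 (adjusted p = 0.731, edgeR). For B2m and H2-K1 the DEP mice stood above the PBS mice in CPM, but not after scaling by the TMM factors that the test uses. H2-Q7, a non-classical chain of the Qa-2 group, was at 146 and 78.1 CPM against 86.6 and 29.3 CPM, from 50, 36, 47 and 20 UMIs. Its log2 fold change of 0.95 ± 0.35 had an adjusted p of 0.627 in edgeR, and the groups overlapped. It passed only when a mouse was left out: 1.35 (adjusted p = 0.0106, edgeR) without DEP mouse 15 and 1.88 (adjusted p = 0.00043, edgeR) without PBS mouse 2, against 0.31 without PBS mouse 3 (adjusted p = 0.962, edgeR). H2-T23, which encodes Qa-1, was at 158 and 178 CPM against 193 and 143 CPM, and its log2 fold change was -0.01 ± 0.22.

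Among the loading genes, Tap1 was at 75.8 and 71.6 CPM in C1q-high cells of the DEP mice and at 62.6 and 57.1 CPM in those of the PBS mice. These values do not overlap, but they come from 26, 33, 34 and 39 UMIs, and the log2 fold change was 0.29 ± 0.28. Tapbp overlapped, at 210.0 and 193 CPM against 214 and 154 CPM. Among the proteasome subunits, Psmb9, which takes the place of Psmb6 in the immunoproteasome, was at 207 and 189 CPM in the DEP mice and at 127 and 140 CPM in the PBS mice. The means were 198 ± 12.9 and 134 ± 9.42 CPM (SD, n = 2 mice each), and the log2 fold change was 0.54 ± 0.21 (adjusted p = 0.691, edgeR). Psmb8, which takes the place of Psmb5, overlapped, at 607 and 480 CPM against 560 and 464 CPM (log2 fold change 0.07). Nlrc5 had 2 and 8 UMIs against 7 and 2.

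In CPM, both DEP mice were above both PBS mice for 5 of the 9 genes in C1q-high cells (B2m, H2-D1, H2-K1, Tap1 and Psmb9), where 17.9% of all tested genes were. On the TMM scale this held for 3 (H2-D1, Tap1 and Psmb9), against 17.4% of all genes. The log2 fold change was above 0 for 8 of the 9, with a median of 0.29, beside 50.7% of all 5229 genes and a median of 0.01. These genes are read from the same 4 mice and are not independent of each other. With all deposited cells H2-D1 was 0.39 (adjusted p = 0.795, edgeR), H2-K1 0.32, B2m 0.31 and Psmb9 0.30 on the log2 scale. Over all alternatives, single mice left out included, the log2 fold change of H2-D1 in C1q-high cells was between 0.30 and 0.58, with adjusted p between 0.0553 and 1.0 (edgeR and DESeq2).

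In Plac8-high cells, 0.0% of 4623 genes passed the edgeR test at an adjusted p of 0.05, and 228 (4.93%) had an unadjusted p under 0.05, none of them a member. DESeq2 called 0 genes too. Psmb8 was at 864 and 744 CPM in the DEP mice and at 604 and 579 CPM in the PBS mice, a log2 fold change of 0.46 ± 0.23 (unadjusted p = 0.0743, adjusted p = 0.910, edgeR). The groups did not overlap, with means of 804 ± 84.6 and 592 ± 18.0 CPM (SD, n = 2 mice each). H2-D1 was at 4199 and 3795 CPM against 3094 and 3604 CPM, and H2-K1 at 1445 and 1117 CPM against 1076 and 958 CPM, with log2 fold changes of 0.28 ± 0.19 and 0.35 ± 0.23. H2-D1 was lowest in PBS mouse 2, the mouse with the most C1q-high cells within this gate. In cells of only the Plac8 gate that mouse was at 4003 CPM, above DEP mouse 15 at 3800 CPM, so that the groups overlapped for H2-D1 (log2 fold change 0.20), while H2-K1 and Psmb8 kept both DEP mice above both PBS mice.

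B2m overlapped in Plac8-high cells, at 7048 and 6226 CPM against 6413 and 5501 CPM. H2-T23 was lower in both DEP mice, at 155 and 95.9 CPM against 236 and 159.7 CPM, a log2 fold change of -0.65 ± 0.39. That separation was absent on the TMM scale, and the UMIs were 23, 17, 23 and 16. H2-Q7 (203 and 95.9 against 184 and 69.9 CPM), Tap1 (135 and 90.2 against 102 and 140 CPM), Tapbp (229.5 and 219.9 against 256 and 169.7 CPM) and Psmb9 (203 and 231 against 215 and 159.7 CPM) overlapped, each from at most 41 UMIs a mouse. Both DEP mice were above both PBS mice for 3 of the 9 genes (H2-D1, which overlapped in cells of only that gate, H2-K1 and Psmb8), against 18.8% of all tested genes in CPM and 19.4% on the TMM scale. Of the 9 log2 fold changes, 7 were above 0 with a median of 0.22, beside 51.9% of all genes and a median of 0.04.

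Taking all retained cells of a mouse as 1 library, H2-D1 was at 3745 and 3437 CPM against 2848 and 2434 CPM. The mix of cells moved with it: monocyte markers summed to 2486 and 1917 CPM in the DEP mice against 769 and 1010.2 CPM in the PBS mice, and resident markers to 47179 and 43527 against 61337 and 56980.2 CPM, and their part in the value was not tested. Its log2 fold change was 0.39 ± 0.13 (unadjusted p = 0.0064, adjusted p = 0.282, edgeR), and no member passed, where 0.449% of 5128 genes did, with 4 of 9 members at an unadjusted p under 0.05 in edgeR, beside 8.68% of all genes, and none called by DESeq2. The other members lay between -0.17 (H2-T23) and 0.83 (H2-Q7), and 8 of 9 were above 0 with a median of 0.24, beside 49.1% and -0.01 for all genes. H2-Q7 again passed when DEP mouse 15 was left out (1.32, adjusted p = 0.00074, edgeR). In CPM both DEP mice were above both PBS mice for B2m, H2-D1, H2-K1, Tap1 and Psmb9, against 22.8% of all genes, and on the TMM scale for H2-D1, Tap1 and Psmb9, against 19.1%. The cells removed by the filter gave shares for the 10 genes of 1.20% and 1.17% in the DEP mice and 1.14% and 0.93% in the PBS mice.

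Whether the DEP difference was itself unlike in the gates was tested with cells of only 1 gate, in a fit with each mouse as its own block. None of the 9 genes passed in edgeR, where 0.368% of all genes did, and Psmb8 was the 1 member with an unadjusted p under 0.05, beside 5.63% of all genes: its DEP difference in Plac8-high cells exceeded that in C1q-high cells by 0.61 ± 0.30 on the log2 scale (unadjusted p = 0.0429, adjusted p = 0.847, edgeR). H2-D1 (-0.24), H2-K1 (0.01) and B2m (-0.09) gave small values. H2-Q7 (-0.83), H2-T23 (-0.70) and Tap1 (-0.56) gave larger ones, from few UMIs.

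Plac8-high and C1q-high cells were then compared with each other within the 4 mice, again with cells of only 1 gate. Here 18.4% of 5167 genes passed, and none of the 9 members did in edgeR or DESeq2, with 2 of 9 at an unadjusted p under 0.05 in edgeR, beside 28.3% of all genes. H2-K1 came nearest. It was at 1295 and 1053 CPM in Plac8-high cells of DEP mice 14 and 15 and at 981 and 924 CPM in those of PBS mice 2 and 3, and at 1429 and 1071 CPM (DEP) and 1078 and 851 CPM (PBS) in their C1q-high cells. The log2 difference was -0.37 ± 0.13 (unadjusted p = 0.0095, adjusted p = 0.0515, edgeR), the one member lower in 4 of 4 mice on the TMM scale, as 23.4% of all genes were. It passed with RLE factors (-0.38, adjusted p = 0.0319) and without a detection filter (-0.49, adjusted p = 0.0398), and was -0.04 when libraries were scaled by their totals alone (adjusted p = 0.855, all edgeR).

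H2-D1 was at 4537 and 3800 CPM in Plac8-high and at 3542 and 3285 CPM in C1q-high cells of the DEP mice. In the PBS mice it was at 4003 and 3684 CPM against 2799 and 2257 CPM. It was higher in Plac8-high cells in 4 of 4 mice in CPM, but the TMM factors were 1.08 to 1.21 for Plac8-high and 0.87 to 0.91 for C1q-high libraries, and the fitted log2 difference was 0.12 ± 0.12 (adjusted p = 0.570, edgeR). Scaled by library totals, H2-D1 (0.44, adjusted p = 0.0021), Tap1 (0.92, adjusted p = 0.0207) and Psmb8 (0.45, adjusted p = 0.0305) passed as higher in Plac8-high cells (edgeR), and the median of all genes moved from -0.13 to 0.18. Tap1 was 0.61 ± 0.29 with the TMM factors (adjusted p = 0.157, edgeR), at 158 and 66.7 CPM against 72.5 and 62.3 CPM in the DEP mice and at 140 and 142 CPM against 62.6 and 55.4 CPM in the PBS mice, from 7 to 15 UMIs a mouse in Plac8-high cells.

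B2m was -0.20, Tapbp -0.09 and Psmb9 -0.06 on the log2 scale with the TMM factors, and all 3 turned positive by library totals (0.12, 0.23 and 0.25). In CPM 4 of the 9 genes were higher in Plac8-high cells in 4 of 4 mice (B2m, H2-D1, Tap1 and Tapbp), against 22.1% of all genes, and none was lower, against 14.1%. On the TMM scale none was higher, against 12.8%. The edges of the gates were read with the cells of all 4 mice and both exposures pooled. At the edge of the Plac8 gate, 41 cells with 1 Plac8 UMI, just outside, had 2600.2 CPM of H2-D1, 5772 of B2m and 1114 of H2-K1, and 14 cells with 2 Plac8 UMIs, just inside, had 2821, 5793 and 899 CPM. At the C1q edge 5 cells just outside (0.4 to 0.5% of UMIs) had 2298 CPM of H2-D1 and 6 just inside (0.5 to 0.6%) 2687 CPM. The mix of mice was not matched between these bands, so a difference between bands cannot be told apart from one between mice.

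**Figure D2:**
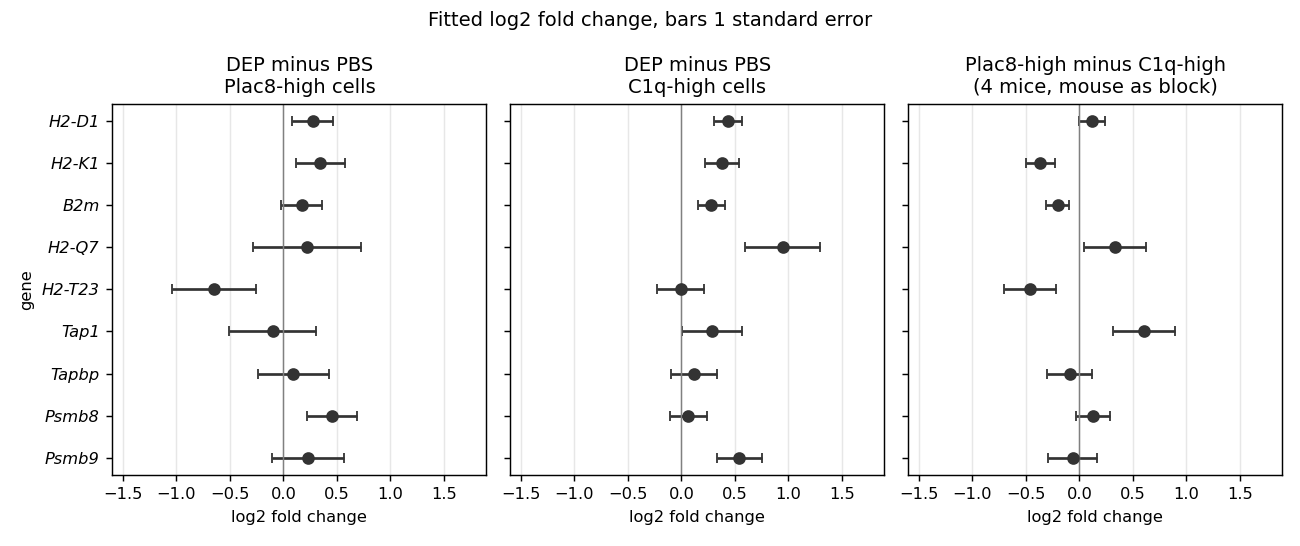
Fitted log2 fold change of the 9 tested genes for DEP minus PBS in Plac8-high cells (left) and C1q-high cells (middle, 2 mice each), and for Plac8-high minus C1q-high cells (right, 4 mice), with bars of 1 SE from edgeR. H2-D1 lies at 0.28 and 0.43 in the DEP panels, H2-K1 at -0.37 between gates, and none passed the adjusted threshold.

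The balance of the classical chains does not depend on how libraries are scaled. It was read first in cells of only 1 gate. There H2-K1 made up 22.2% and 21.7% of the UMIs of H2-K1 and H2-D1 in Plac8-high cells of the DEP mice. In those of the PBS mice it made up 19.7% and 20.1%. In C1q-high cells it made up 28.8% and 24.6%, and 27.8% and 27.4%. The share was lower in Plac8-high cells in 4 of 4 mice, at 20.9 ± 1.23% against 27.1 ± 1.80% (SD, n = 4 mice), a difference of -6.22 percentage points (exact sign-flip permutation test over mice, two-sided p = 0.125, the smallest that 4 mice allow). The ratio was chosen after its values had been seen. With all cells of a gate the share overlapped between DEP and PBS. The difference in C1q-high cells was then -0.80 percentage points (exact permutation p = 1.0, two-sided). All Plac8-high cells gave 25.6% and 22.7% in the DEP mice and 25.8% and 21.0% in the PBS mice. In cells of only the Plac8 gate both DEP mice stood above both PBS mice, which was not tested. Cells of both gates gave 32.3% and 28.0% against 35.4% and 26.5%, from 68 to 282 UMIs a mouse.

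The immunoproteasome share, the UMIs of Psmb8, Psmb9 and Psmb10 among these and the constitutive subunits Psmb5, Psmb6 and Psmb7 that they replace, also needs no scaling. It was 68.0% and 66.9% in C1q-high cells of the DEP mice and 67.6% and 65.3% in those of the PBS mice, a difference of 1.01 percentage points (exact permutation p = 0.667, two-sided, where 2 mice against 2 cannot go below 0.333). In Plac8-high cells it was 72.5% and 64.3% against 68.1% and 59.5%, a difference of 4.59 percentage points (exact permutation p = 0.667, two-sided). The groups overlapped in both gates. Between gates the share was read in cells of only 1 gate. It was 65.1 ± 6.82% in Plac8-high and 66.6 ± 1.08% in C1q-high cells (SD, n = 4 mice, exact sign-flip permutation p = 0.625, two-sided).

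By pair of subunits, Psmb9 made up 49.3% and 52.1% of Psmb9 and Psmb6 in C1q-high cells of the DEP mice and 42.1% and 44.9% in those of the PBS mice. These did not overlap, and the difference of 7.23 percentage points had the smallest exact permutation p the design allows (0.333, two-sided). With 2 mice against 2, any lack of overlap gives this p. The split by pair was not part of the planned share, and Psmb9 by itself already separated the groups in CPM in these cells. In Plac8-high cells the same share was 54.5% and 46.6% against 46.7% and 37.2%, which overlapped. Psmb8 among Psmb8 and Psmb5 differed by 2.01 and Psmb10 among Psmb10 and Psmb7 by -2.84 percentage points in C1q-high cells (exact permutation p = 0.333 each, two-sided), so the pairs did not move one way.

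**Figure D3:**
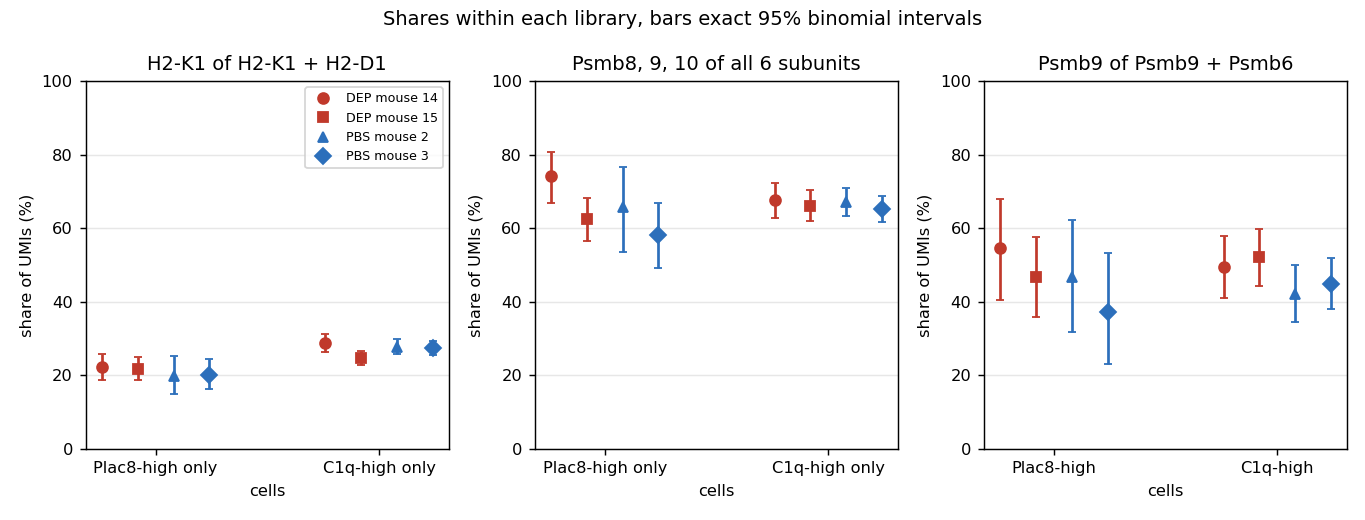
Share of UMIs in percent (y axis from 0 to 100) in each of the 4 mice, with exact 95% binomial intervals as bars, for H2-K1 among H2-K1 and H2-D1 and for the immunoproteasome subunits (both in cells of only 1 gate) and for Psmb9 among Psmb9 and Psmb6 (all cells of a gate). The H2-K1 share averages 20.9% in Plac8-high and 27.1% in C1q-high cells, and the DEP mice stand above the PBS mice in the Psmb9 share of C1q-high cells, with overlapping intervals.

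Cell by cell, B2m, H2-D1 and H2-K1 were counted after each cell had been thinned to 1000 UMIs, a number that every cell reached. In C1q-high cells of only that gate the median count of a DEP exposed mouse was 12 (mouse 14) or 9 (mouse 15) and that of a control 9 (mouse 2) or 7 (mouse 3) (unthinned 48, 28, 23.5 and 34.5). In Plac8-high cells it was 14 and 10 against 11 and 11 UMIs (unthinned 40, 30.5, 27 and 34.5). DEP mouse 14 was highest in both gates and DEP mouse 15 was level with or below a PBS mouse in both. At this depth 1 cell of PBS mouse 3 and 1 of PBS mouse 2 had none of the 3 transcripts, and no cell lacked them all before thinning.

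**Figure D4:**
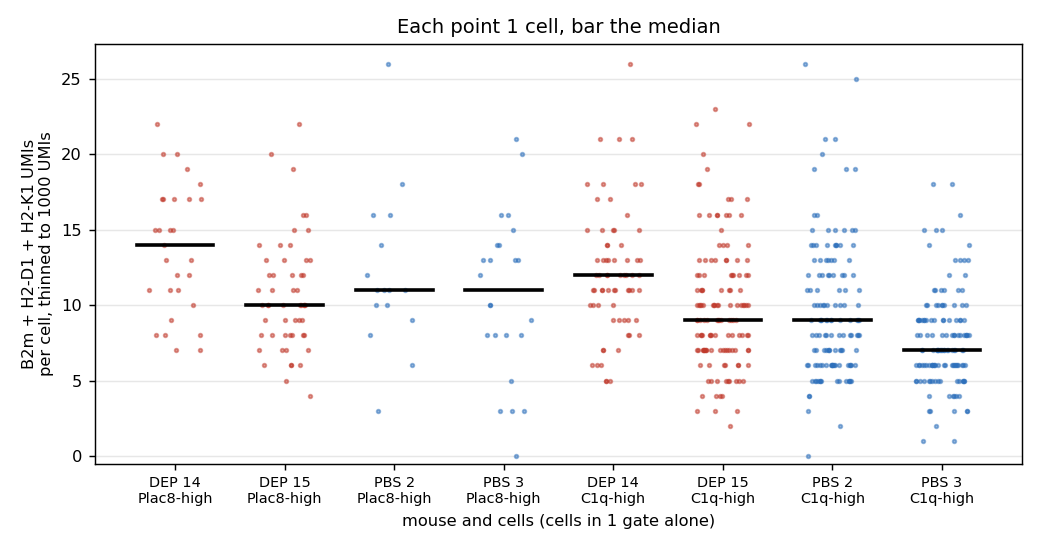
UMIs of B2m, H2-D1 and H2-K1 together per cell after thinning to 1000 UMIs, by mouse, in Plac8-high and C1q-high cells of only 1 gate, with 1 point a cell and a bar at the median. The distributions overlap widely, with medians of 10 to 14 in Plac8-high and 7 to 12 in C1q-high cells.

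The rest of the path was described by a wider list of 46 genes, of which 42 were in the table. In C1q-high cells 33 could be tested, and none passed in edgeR or DESeq2 (4 at an unadjusted p under 0.05 in edgeR, beside 6.27% of all genes). Of these, 24 had a log2 fold change above 0 and the median was 0.12, beside 50.7% of all genes and a median of 0.01. By role, 4 of 6 further class I chains, 5 of 7 loading genes, 6 of 9 genes of peptide supply and 9 of 11 regulators were above 0. Stat2, which carries type I interferon signals, had 11 and 11 UMIs in the DEP mice and 3 and 7 in the PBS mice, a log2 fold change of 1.71 ± 0.55 (adjusted p = 0.444, edgeR). H2-Q4, a chain of the Qa region, was at 140 and 167 CPM against 101 and 68.8 CPM, a log2 fold change of 0.86 (adjusted p = 0.271, edgeR). The groups did not overlap, as both DEP mice stood above both PBS mice for 17.9% of all tested genes in CPM. H2-Q6 (0.88) and H2-T22 (0.88) were also among the 5 with the largest differences.

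In Plac8-high cells 31 genes of the wider list could be tested, and none passed in edgeR or DESeq2 (2 at an unadjusted p under 0.05 in edgeR, beside 4.93% of all genes). Of these, 22 were above 0 with a median of 0.36, beside 51.9% of all genes and a median of 0.04. Regulators (9 of 11), loading genes (6 of 7) and peptide supply (6 of 8) were mostly above 0, and further chains mostly below (1 of 5 above). The largest differences were Ciita, the class II transactivator, at 1.34, Psme3 at 1.18, Stat2 at 0.97, H2-M3 at -0.96 and Jak1 at 0.91 on the log2 scale, with adjusted p of 0.910 to 0.938 (edgeR). Ciita rests on 19 and 10 UMIs against 6 and 1, and was 0.52 without PBS mouse 3, 0.65 without DEP mouse 14 and 3.10 without PBS mouse 2. Psme3 rests on 4 and 15 UMIs against 2 and 3, and was 0.11 without DEP mouse 15 and 1.71 without DEP mouse 14. In all retained cells 24 of 33 were above 0 with a median of 0.14, beside 49.1% of all genes and a median of -0.01. Stat2 (1.76, adjusted p = 0.113) and H2-Q4 (0.84, adjusted p = 0.112, both edgeR) were among the largest. None of the wider list passed the test of unlike DEP differences between gates (2 of 33 at an unadjusted p under 0.05 in edgeR, beside 5.63% of all genes), where Cd1d1 (2.51) and Ciita (2.42) had the largest values and H2-T22 (-1.72) the largest negative one. Cd1d1 rests on 3 and 4 UMIs against 1 and 0 in Plac8-high cells, and leaving out 1 mouse moved it from 0.92 (without PBS mouse 3) to 6.65 (without PBS mouse 2), and Ciita from 1.34 to 7.15 without the same mice.

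Between the gates, unlike the members, 10 of 33 tested genes of the wider list passed, 9 of them lower in Plac8-high cells, beside 18.4% of all genes. The non-classical chain H2-M2, counted among these, entered the test through its C1q-high libraries alone: it had no UMI in cells of only the Plac8 gate and 691 in cells of only the C1q gate, 111 to 292 a mouse, so that it was at least 46.3-fold lower by a floor of 3 UMIs over the group.

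Endoplasmic reticulum chaperones that fold class I chains were among those lower: Hspa5 (-0.93), Canx (-0.72, adjusted p = 0.0159), Calr (-0.64, adjusted p = 0.0043) and Pdia3 (-0.59, adjusted p = 0.0110, all edgeR), 4 of the 7 loading genes tested. Scaled by library totals, Hspa5 still passed (-0.61), and Canx (-0.40), Calr (-0.32) and Pdia3 (-0.27) did not. In CPM, DEP mouse 14 went the other way for Hspa5 (1295 in Plac8-high against 1205 in C1q-high cells), Calr (589.5 against 542) and Pdia3 (558 against 459). Canx was level in PBS mouse 2 (220.1 CPM in both gates). Ciita (-1.32, adjusted p = 0.0061), the interferon receptor chain Ifnar2 (-1.20, adjusted p = 0.0003), H2-M3 (-0.99, adjusted p = 0.0318) and H2-Q6 (-1.6, adjusted p = 0.0289) were lower too (edgeR). In CPM, Ciita went the other way in DEP mouse 14 (126 in Plac8-high against 107 in C1q-high cells) and H2-M3 in PBS mouse 2 (120 against 96.9). H2-Q6 did so in PBS mouse 3 (11.8 against 8.98, from 1 UMI in Plac8-high cells). None of the 9 genes of peptide supply passed. H2-Q6, Pdia3, Canx and H2-M3 were the least stable, passing in 7 of 16, 12 of 17, 12 of 17 and 11 of 17 alternatives, and 4 of the 10 passed in DESeq2. With 1 mouse left out, calls were lost for Pdia3 without DEP mouse 15 (-0.51), PBS mouse 2 (-0.50) or PBS mouse 3 (-0.52), for Canx without DEP mouse 15 (-0.56), for H2-M3 without DEP mouse 14 (-0.99) or 15 (-0.57), for H2-Q6 without any mouse but PBS mouse 3 (-1.25 to -1.77), and for Ciita without PBS mouse 3 (-0.99), while Ciita was -2.08 without DEP mouse 14.

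**Figure D5:**
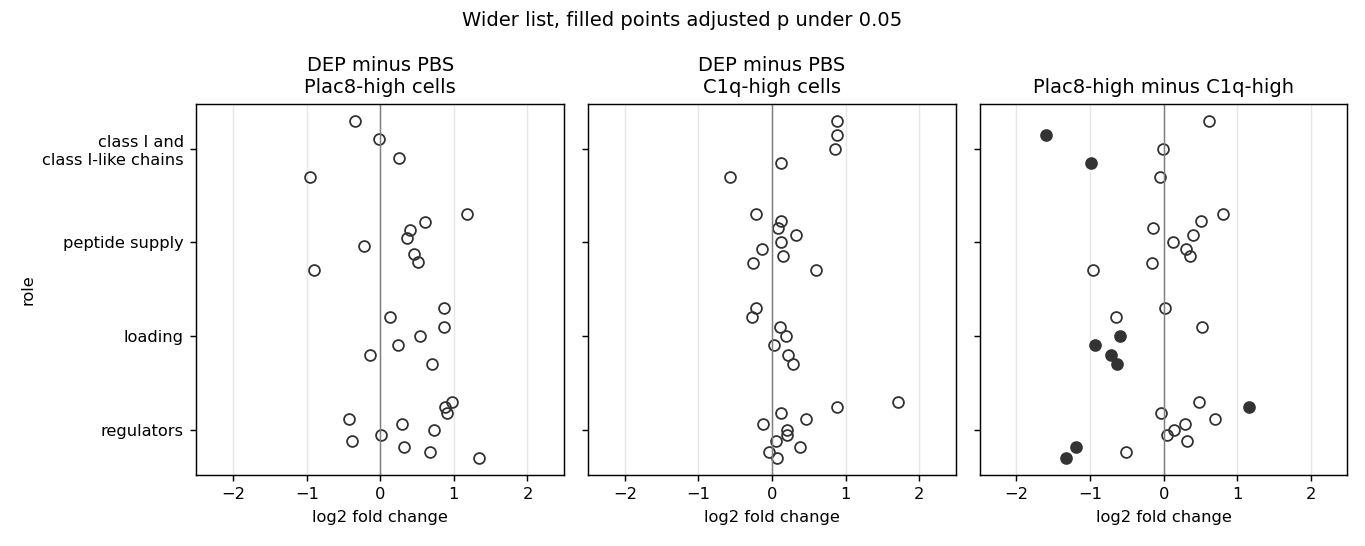
Fitted log2 fold change of each tested gene of the wider list, by role (rows), for DEP minus PBS in Plac8-high cells (left) and C1q-high cells (middle) and for Plac8-high minus C1q-high cells (right), with filled points for an adjusted p under 0.05 (edgeR) and H2-M2, which has no UMI in cells of only the Plac8 gate, left out of all panels. No point is filled in the DEP panels, and on the right 8 genes are filled below 0.

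Over the 8 libraries of 4 mice and 2 gates (cells of only 1 gate), where the gates of a mouse share its sequencing library, the genes whose log2(CPM + 10) followed the mean of the members most closely among 2232 genes were Ddost (Pearson r = 0.94), Tmem33 (0.90), Adrm1 (0.90), Sec13 (0.90) and Ppib (0.87), given as a description. Ddost and Ppib encode endoplasmic reticulum proteins, and Adrm1 a proteasome ubiquitin receptor. Among the members, H2-Q7 (0.93), H2-D1 (0.92) and B2m (0.91), which enter that mean, followed it most closely, and H2-T23 (0.37) least. The last 500 bases of the annotated transcripts, where this 3′ assay reads, shared words of 50 bases with other genes for 38.1% of H2-T23, 9.53% of H2-D1, 6.21% of H2-Q7 (mostly with H2-Q5) and 0.443% of H2-K1, and for none of the other members. Only the longest coding transcript of each gene was read for this. Shared words may make the counts of H2-T23, H2-D1 and H2-Q7 uncertain. A share of words is not a share of UMIs, and how many UMIs they concern was not measured.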

How the data were processed

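Single-cell 3′ libraries were made on the 10x platform, 1 per mouse and in 1 batch. The authors aligned reads to mm10 with Cell Ranger (STAR 2.6.1a per the submitters' processing notes) and deposited raw UMI counts per gene and cell, with no normalization. Each cell's mouse was read from the suffix of its name. No value columns were left unused. A cell was removed when 3 or more markers of some other class had a UMI, and UMIs were summed per mouse and gate. Doublets were not called separately. Genes above 1 CPM in at least 2 libraries and with a UMI in at least 5% of cells were tested with edgeR 4.0.16 (quasi-likelihood, TMM, Benjamini-Hochberg, threshold 0.05) in R 4.3.3, after testing on simulated data, and SE was taken from the F statistic. Alternatives used DESeq2 1.42.0, a likelihood ratio test, RLE factors, library totals, no detection filter, other gates, thinned cells, all deposited cells and each mouse left out. The rule without immunoglobulin markers and library totals were added after seeing the data, because immunoglobulin transcripts removed more cells of the DEP mice. The H2-K1 share and the shares by pair of proteasome subunits were not planned either. Members, lists and gates were chosen with earlier results of these data known. Every member was named in each comparison, and of the wider list those past the threshold, or else the 5 largest differences. Some genes of the lists are not reported here. Gene positions follow the GRCm38 annotation.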

Additional observations from a re-analysis of the deposited data

How the results depend on the processing

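Under settings other than leaving out a mouse, members kept their direction in 71 of 72 values in all retained cells, 92 of 99 in Plac8-high cells, 91 of 99 in C1q-high cells, 111 of 117 between gates and 32 of 36 in the test of unlike DEP differences. No paired analysis of DEP against PBS was possible, because the mouse numbers in the labels pair no DEP mouse with a PBS mouse. Between gates each mouse was a block, and without it 972 genes passed against 952. The cause of the changes below was not tested. The number of genes passing in all retained cells (23) was 1 with all deposited cells, 1 without immunoglobulin markers, 1 thinned, 2 with DESeq2, 35 by likelihood ratio and 76 without the detection filter. In Plac8-high cells (0) it was 2 with all deposited cells, 22 with cells of only that gate and 4 by likelihood ratio. In C1q-high cells (10) it was 1 with all deposited cells, 17 by likelihood ratio, 35 without the detection filter, and 0 with DESeq2, thinned, without immunoglobulin markers, with cells of only that gate and at C1q limits of 0.3% and 1%. Between gates it was 424 thinned and 482 with DESeq2, and by library totals 752 of 1142 were higher in Plac8-high cells against 376 of 952. For unlike DEP differences (19) it was 2 with all deposited cells and 1 thinned.

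Leaving out each mouse in turn gave 14 to 64 genes in all retained, 5 to 14 in Plac8-high and 17 to 45 in C1q-high cells, 715 to 837 between gates and 3 to 31 for unlike DEP differences. The lone mouse left in a group was then assumed to vary like the other group. No member passed in these fits other than H2-Q7, as given above. The immunoproteasome share difference ranged from 0.28 to 8.89 percentage points in Plac8-high cells, -0.13 to 2.15 in C1q-high cells, -0.25 to 3.92 in all retained cells and -4.10 to 0.48 between gates. Thinned to 1000 UMIs it was -0.58 in C1q-high cells, -0.056 in all retained cells and 0.21 between gates.

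Members whose log2 value changed sign did so as follows. In all retained cells Tapbp was -0.094 thinned. In Plac8-high cells Tap1 was 0.085 with all deposited cells, 0.35 without immunoglobulin markers, 0.17 thinned and 0.045 with a gate of 1 Plac8 UMI; Tapbp was -0.21 thinned and -0.091 with cells of only that gate; Psmb9 was -0.023 with all deposited cells. In C1q-high cells Psmb8 was -0.21 thinned, and H2-T23 was 0.063 with all deposited cells, 0.071 without immunoglobulin markers, 0.0020 and 0.028 at C1q limits of 0.3% and 1%, 0.043 with cells of only that gate, 0.0011 with RLE factors and 0.0085 by library totals. Between gates B2m, Tapbp and Psmb9 were 0.12, 0.23 and 0.25 by library totals, Psmb9 was 0.019 at a C1q limit of 1%, and H2-D1 and Psmb8 were -0.012 and -0.00044 without the detection filter. For unlike DEP differences H2-K1, H2-Q7 and Psmb9 were -0.15, 0.76 and 0.38 thinned, and B2m was 0.071 without the detection filter. With each mouse left out, the range crossed 0 for H2-T23 (-0.42 to 0.087) and Tapbp (-0.21 to 0.29) in all retained cells, for H2-Q7 (-0.40 to 1.09), Tap1 (-0.42 to 0.17), Tapbp (-0.21 to 0.44) and Psmb9 (-0.0082 to 0.48) in Plac8-high cells, for H2-T23 (-0.22 to 0.22), Tapbp (-0.11 to 0.38) and Psmb8 (-0.091 to 0.22) in C1q-high cells, for Psmb9 (-0.17 to 0.045) between gates, and for H2-K1 (-0.14 to 0.25) and B2m (-0.21 to 0.10) among unlike DEP differences. In the wider list it did so for H2-Q6 (-0.17 to 2.21) and H2-T22 (-0.062 to 1.02) in all retained cells and for H2-Q6 (-0.00031 to 2.64) in C1q-high cells. Genes at under 50 UMIs a mouse are limited by depth.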
